A study of Homo sapiens with 4 samples.

Results

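The genes described here are 10 regulators of the cell cycle: the CDC25 phosphatases CDC25A, CDC25B and CDC25C, the E-type cyclins CCNE1 and CCNE2, the inhibitory kinases WEE1 and PKMYT1, the cyclin-dependent kinases CDK2 and CDK6, and the retinoblastoma protein gene RB1. The rule that chose them lists genes by name and uses no measured value. Earlier results of these data were known when the genes were chosen, so they are not an independent list. The genes make up 10 of the 20046 protein-coding genes of GENCODE release 44. A peak was counted for a gene when its summit lay in any annotated exon of that gene, and genes without such a peak are reported as well. By this rule, 36 of 44622 peaks in replicate 1 and 37 of 42723 peaks in replicate 2 belonged to these genes.

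The peaks came from RNA immunoprecipitation and sequencing (RIP-seq) of IGF2BP3, an RNA-binding protein counted among the readers of N6-methyladenosine (m6A), in the OE-19 line. OE-19 is an established line of human tumour cells, derived from an adenocarcinoma at the junction of esophagus and stomach. The labels list 4 samples, 2 of RNA pulled down with anti-IGF2BP3 and 2 of input RNA, all from OE-19 cells that were grown in RPMI1640 medium with serum, fixed with UV light and lysed, with no genotype or drug treatment named. Only the peak lists of the 2 RIP replicates were analysed here, and the input values were not used. No label says whether the replicates were separate cultures, and the study's text calls them biological replicates. The lists thus describe where IGF2BP3-bound RNA was called in 1 line under 1 condition, and no group was compared with another. A transcript without a peak may be little expressed, little bound or below what the libraries could show, which cannot be told apart from these lists. Markers did not serve to check the cell type, since 3 of 8 epithelial genes and 2 of 8 genes of other cell types had a peak.

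Cells enter S phase when cyclin E and CDK2 become active. CDK4 and CDK6 with D-type cyclins phosphorylate the retinoblastoma protein, which otherwise holds back E2F transcription factors. WEE1 and PKMYT1 place inhibitory phosphates on cyclin-dependent kinases, and CDC25 phosphatases remove them. Proteins of the IGF2BP family are known to bind mRNAs and to slow their decay.

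Exonic peaks were present in both replicates for 5 of the 10 genes, CDC25A, CCNE2, WEE1, CDK6 and RB1. Among all protein-coding genes the same was true of 28.0%. CDC25B had peaks in replicate 1 only and CDC25C in replicate 2 only, which brought the number with a peak in either replicate to 7 of 10, beside 36.2% of all genes. CCNE1, PKMYT1 and CDK2 had none. The peaks were unevenly spread, because CDK6 and RB1 together held 27 of the 36 peaks in replicate 1 (75%) and 29 of the 37 in replicate 2 (78.4%). Few were strong. A q of at most 0.05, the caller's p after correction for multiple testing, was reached by 3 of 36 peaks in replicate 1 and 3 of 37 in replicate 2, beside 10.1% and 7.70% of all exonic peaks. These 6 peaks lay in exons of WEE1, CDC25C, CDK6 and RB1, 4 of the 10 genes, beside 10.3% of all genes with such a peak in either replicate. The peak counted for CDC25C also lies in an exon of FAM53C and could not be tied to CDC25C, as described below.

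**Figure D1:**
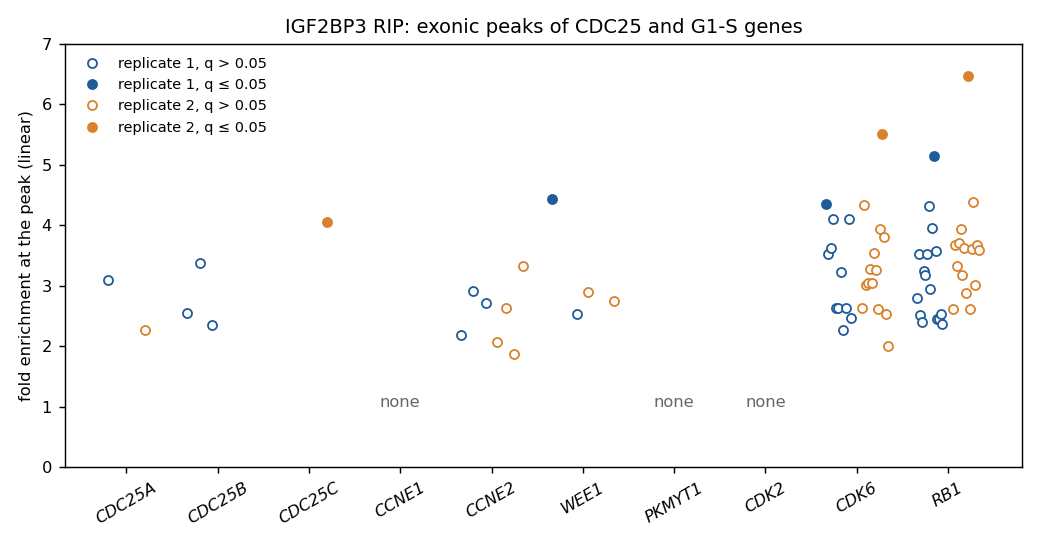
Fold enrichment (linear) of every exonic peak of the 10 genes, 1 point per peak, in genome order within each gene. Blue points are replicate 1, orange points replicate 2, and filled points have a q of at most 0.05. CDK6 and RB1 hold most points, and CCNE1, PKMYT1 and CDK2 have none.

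CDC25A, the phosphatase that acts at entry into S phase, had a single weak peak in each replicate, and both summits lay just past its stop codon. The gene (ENSG00000164045.12) lies on the minus strand of chromosome 3, at 48157146 to 48188417 in GRCh38, and its canonical mRNA of 3844 nt has 15 exons, a coding sequence (CDS) of 1575 nt and a 3′ UTR of 1799 nt. In replicate 1 the peak spanned 48158681 to 48158937, and its fold enrichment, the ratio of RIP signal to local background at the summit, was 3.10 (−log10 p 4.34, q = 0.336, both from the authors' caller). In replicate 2 the peak spanned 48158909 to 48159047, with a fold of 2.26 (−log10 p 3.46, q = 1). Both peaks were in exon 15, the last exon, and shared only 29 bp. Their summits were nonetheless 2 nt apart, at 15 and 17 nt past the stop codon. The mean fold was 2.68 ± 0.592 (SD, n = 2). Neither value stood out, as 58.8% of all exonic peaks in replicate 1 and 11.1% in replicate 2 had a lower fold. Set against the highest fold of each gene with a peak, 35.8% and 7.62% of genes were lower. Those genes had a median of 4 peaks in each replicate from which the highest was taken.

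The first 30 nt of the transcript from the CDC25A stop codon, at chr3:48158918-48158947 on the minus strand, are shown because both summits lie in them. The capitals mark a match to DRACH, the motif in which m6A is usually found (any base but C, then A or G, then AC, then any base but G), and the sequence begins with the stop codon.
CDC25A stop: tgagggcggcaGGACCagccagcagcagcc
The adenosine of this motif, 11 nt past the stop codon, lay 4 nt before the replicate 1 summit and 6 nt before the replicate 2 summit and was inside both peaks. Past the stop codon it was the only DRACH adenosine that the replicate 2 peak held, since that peak ran from 102 nt before the end of the stop codon to 36 nt past it. The replicate 1 peak ran from 8 to 264 nt past the stop codon and held 7 DRACH matches, 3 of them with GGAC. With its part in the CDS, the replicate 2 peak held 4 DRACH matches, also 3 of them with GGAC. TGGAC, the DNA form of the UGGAC that the study names, occurred in neither peak, although the 3′ UTR holds 3 such matches elsewhere.

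Further along the 3′ UTR, DRACH adenosines stood at mRNA positions 2131, 2142 and 2164, counted from the first base of the canonical transcript. Adenosines with these position numbers were examined singly in other experiments of the study, which does not name the transcript it counted on, and the match of the numbers was noticed after the peaks had been seen. They lay 86, 97 and 119 nt past the stop codon. All 3 were inside the replicate 1 peak, 71 to 104 nt downstream of its summit, and none was inside the replicate 2 peak. The stretch with the first and second of them, at chr3:48158834-48158863 on the minus strand, is given with its DRACH matches in capitals.
CDC25A 3′ UTR: ggGGACAgctgtgTGACAtttggagagggg
The RIP peaks therefore covered this stretch in 1 of 2 replicates, and the replicates overlapped only upstream of it, next to the stop codon.

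Of all protein-coding genes, 454 had exactly 1 exonic peak in each replicate, and in 12 of these, CDC25A included, the peaks overlapped with both summits within 50 nt of the stop codon. By the Euclidean distance of the log2 folds over the 2 replicates, the genes closest to CDC25A among the other 11 were IFT57 (0.06), CYP4F2 (0.09), SPATA1 (0.10), EEF1E1-BLOC1S5 (0.13) and DNAH11 (0.34).

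CDC25B and CDC25C, the phosphatases that act mainly at entry into mitosis, each had peaks in 1 replicate. In CDC25B (chromosome 20, 3786772 to 3806121, plus strand) the 3 peaks of replicate 1 had folds of 2.55 in exon 1, 3.38 in exon 10 and 2.35 in exon 16, with q values of 1, 0.395 and 1. The last summit lay in the stop codon itself. The strongest of the 3 was 38 bp wide. Its summit with the 50 nt on either side, chr20:3801959-3802059 on the plus strand, holds a pair of DRACH matches, both with GGAC, and 68.3% of its bases are G or C.
CDC25B exon 10: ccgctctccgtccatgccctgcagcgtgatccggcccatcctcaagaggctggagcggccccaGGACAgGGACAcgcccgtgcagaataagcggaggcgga
No replicate 2 peak had its summit in an exon of CDC25B.

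The CDC25C peak could not be tied to that gene. CDC25C lies on the minus strand of chromosome 5 (138285269 to 138338355), and the peak, called in replicate 2 only, spanned 138338280 to 138338327 with a fold of 4.05 (caller's q = 0.00424). It was among the 6 strongest of the 73 peaks by q. Its summit, however, was 6501 bp upstream of the start of the canonical CDC25C transcript, inside first exons of other CDC25C transcripts, and also 40 nt into exon 1 of FAM53C, in the 5′ UTR on the opposite strand. The libraries were made with a directional kit, but the lists carry no strand, so the reads may come from either gene. Without summits that lie in exons of more than 1 gene, the number of genes with a peak in either replicate was 6.

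The E-type cyclins, which activate CDK2, differed from each other. CCNE1 (chromosome 19, 29811991 to 29824312) had no exonic peak in either list. In CCNE2 (chromosome 8, 94879770 to 94896678), 3 peaks were called in replicate 1 and 4 were called in replicate 2, all in the CDS and all weak. In replicate 1 the folds were 2.18 in exon 10, 2.92 in exon 7 and 2.72 in exon 3. In replicate 2 they were 2.07, 1.88 and 3.33 in the same exons, with a further peak of 2.63 in exon 9. The peaks in exons 3, 7 and 10 overlapped between replicates, by 120, 69 and 115 bp, and their summits were 14 to 35 nt apart. The smallest q of the 7 was 0.912. The CCNE2 mRNA was among the poorest in G and C, with 34.6% and only 1.06% of genes below it. Peaks covered 20.2% of the CDS in replicate 1 and 24.9% in replicate 2, and no peak reached the 3′ UTR.

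PKMYT1, the kinase that adds inhibitory phosphates to CDK1 at membranes (chromosome 16, 2968024 to 2980479), and CDK2, the partner of cyclin E (chromosome 12, 55966781 to 55972789), had no exonic peak in either replicate. Their mRNAs were short, 2061 nt and 2240 nt, and that of PKMYT1 was rich in G and C, at 67.3%.

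WEE1, the kinase that opposes CDC25 in the nucleus (chromosome 11, 9573670 to 9593457, plus strand), had 2 peaks in each replicate, but none of the 4 overlapped another. In replicate 1 they lay in exon 6, with a fold of 4.44 (caller's q = 0.0427), and in exon 9, with a fold of 2.54 (q = 1). In replicate 2 they lay in exon 7, with a fold of 2.91, and in exon 11 at the stop codon, with a fold of 2.75 (q = 1 for both). Thus WEE1 counted as having a peak in both replicates, yet at different sites. The strongest site of each replicate is shown, limited to its own exon, with DRACH matches in capitals, at chr11:9581532-9581609 for exon 6 and chr11:9585258-9585353 for exon 7, both on the plus strand.
WEE1 exon 6: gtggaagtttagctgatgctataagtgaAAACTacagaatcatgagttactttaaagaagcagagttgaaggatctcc
WEE1 exon 7: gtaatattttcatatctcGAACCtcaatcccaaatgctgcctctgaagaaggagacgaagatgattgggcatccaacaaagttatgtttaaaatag
Each holds 1 DRACH match and no GGAC.

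CDK6, the kinase that phosphorylates the retinoblastoma protein with D-type cyclins, had most of its peaks deep in its 3′ UTR. The gene (ENSG00000105810.10) lies on the minus strand of chromosome 7, at 92604921 to 92836573, and its canonical mRNA of 11663 nt consists mainly of a 3′ UTR of 10219 nt, next to a CDS of 981 nt. It had 11 peaks in replicate 1 and 14 in replicate 2, a mean of 12.5 ± 2.12 (SD, n = 2). Of these, 7 and 9 were in the 3′ UTR, 3 and 4 in the CDS and 1 in each replicate in the 5′ UTR. All 11 peaks of replicate 1 and 13 of the 14 of replicate 2 overlapped a peak of the other replicate by at least 1 bp.

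The CDK6 3′ UTR peaks were broad and spaced along its length. In replicate 1 they were 261 to 1647 bp wide, with a median of 772 bp, and in replicate 2 they were 52 to 1260 bp wide, with a median of 485 bp. The median width of all 3′ UTR peaks was 206 bp and 191 bp, and 18.6% and 16.8% of them were at least 500 bp wide. Overlap between replicates is likely where peaks are so broad, and the summits of the 7 overlapping pairs in the 3′ UTR were 14 to 426 nt apart. Together the peaks covered 61.3% of the CDK6 3′ UTR in replicate 1 and 40.9% in replicate 2, a mean of 51.1% ± 14.4 (SD, n = 2). The median over genes with a peak was 4.57% and 2.10%, which includes genes without a 3′ UTR summit. CDK6 lay above 93.3% and 89.2% of these genes. Its short CDS was also covered more than the median, over 38.2% and 39.1% of its length, with medians of 18.3% and 17.4%. By its number of 3′ UTR summits, CDK6 ranked 67 of 3244 genes with such a summit in replicate 1 and 22 of 2881 in replicate 2. These ranks do not count ties, and 118 and 37 genes had as many summits there. Per kilobase of mRNA the count was unremarkable, at 0.943 and 1.20 peaks, since the median over genes with a peak was 1.03 and 0.996.

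The strongest CDK6 peak differed between replicates. In replicate 1 it lay 8832 nt past the stop codon, with a fold of 4.35 (caller's q = 0.0211). The overlapping peak of replicate 2 had its summit 8764 nt past the stop codon, with a fold of 4.34 (q = 0.091), so this 3′ UTR site had nearly the same fold in both. In replicate 2 the strongest peak lay in exon 7, in the CDS, with a fold of 5.51 (q = 0.00276), whereas its partner in replicate 1 had a fold of 2.64 (q = 1). That pair differed by 1.06 on the log2 scale, the largest gap among the shared peaks of the 10 genes. Another site, in exon 5, had folds of 4.10 and 3.81 with summits 2 nt apart. The CDS sites are shown with DRACH matches in capitals, exon 5 at chr7:92671455-92671535 and exon 7 at chr7:92618099-92618199, both on the minus strand.
CDK6 exon 5: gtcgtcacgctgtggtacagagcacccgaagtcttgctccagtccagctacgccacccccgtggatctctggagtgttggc
CDK6 exon 7: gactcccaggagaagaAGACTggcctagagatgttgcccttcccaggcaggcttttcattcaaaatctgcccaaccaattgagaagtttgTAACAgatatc
The exon 7 site holds 2 DRACH matches. The exon 5 stretch, which ends with its exon, holds none, and the spliced window that runs 50 nt to either side of each summit there holds 1.

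RB1, which encodes the retinoblastoma protein, had the most peaks of the 10 genes, and they were strung along its coding exons. The gene (ENSG00000139687.16) lies on the plus strand of chromosome 13, at 48303744 to 48599436, with 27 exons in an mRNA of 4768 nt. It had 16 peaks in replicate 1 and 15 in replicate 2, a mean of 15.5 ± 0.707 (SD, n = 2), and 14 in each replicate were in the CDS. At 3.36 and 3.15 peaks per kilobase of mRNA, RB1 lay above 94.7% and 93.1% of genes with a peak. No exon held more than 1 summit per replicate except exon 27, with 2 in replicate 1. The part of exon number in this rank was not tested. Its CDS lay under peaks over 53.0% of its length in replicate 1 and 48.9% in replicate 2, with a mean of 51.0% ± 2.84 (SD, n = 2), and the medians over genes with a peak were 18.3% and 17.4%.

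Summits fell in 11 of the 27 RB1 exons in both replicates, namely 10, 11, 14, 17, 18, 19, 20, 21, 23, 25 and 27. They fell in 8 further exons in 1 replicate and in 8 exons in neither. From exon 17 to exon 27, both replicates had a summit in every exon but 22, 24 and 26, whereas of exons 1 to 9 none had a summit in both. The peaks in 10 of the 11 exons overlapped, with a median of 5.5 nt between summits, and those in exon 11 did not. This distance is over peaks already paired by their overlap, mostly within short exons. Outside the pairs, 6 peaks of replicate 1 and 4 of replicate 2 overlapped no peak of the other list.

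**Figure D2:**
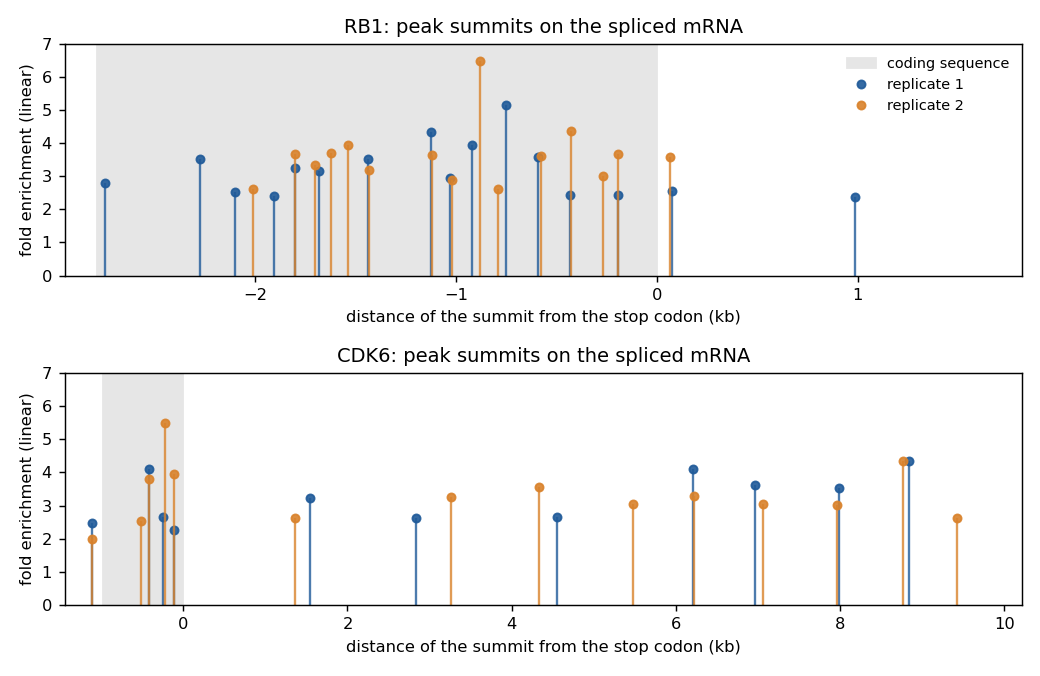
Fold enrichment (linear) of each peak against the distance of its summit from the stop codon, in kilobases along the spliced canonical mRNA, for RB1 (top) and CDK6 (bottom). The grey area is the CDS, blue is replicate 1 and orange is replicate 2. RB1 summits lie mostly within the CDS and CDK6 summits mostly in the 3′ UTR.

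The order of the RB1 peaks by fold, in contrast, changed between replicates. In replicate 1 the strongest lay in exon 20, with a fold of 5.15 (caller's q = 7.05e-05), and the overlapping replicate 2 peak had a fold of 2.62 (q = 1). In replicate 2 the strongest lay in the neighbouring exon 19, with a fold of 6.47 (q = 1.35e-05), and its replicate 1 partner had a fold of 3.96 (q = 0.483). The next in replicate 1, in exon 17, had folds of 4.33 and 3.63 (q = 0.0728 and 0.649), and that in exon 23 had 2.45 and 4.38 (q = 1 and 0.123). No RB1 peak reached a q of 0.05 in both lists. Exons 19 and 20 encode part of the pocket that binds E2F and other partners, and their sites are shown with DRACH matches in capitals, exon 19 at chr13:48456243-48456343 and exon 20 at chr13:48459711-48459811, both on the plus strand.
RB1 exon 19: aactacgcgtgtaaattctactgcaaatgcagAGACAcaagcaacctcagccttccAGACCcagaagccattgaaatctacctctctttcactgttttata
RB1 exon 20: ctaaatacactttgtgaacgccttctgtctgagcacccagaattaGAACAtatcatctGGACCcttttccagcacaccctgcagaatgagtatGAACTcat
The exon 20 site holds 3 DRACH matches, 1 of them with GGAC, and the exon 19 site holds 2, none with GGAC.

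Across the 10 genes, 25 of 36 peaks in replicate 1 (69.4%) and 28 of 37 in replicate 2 (75.7%) overlapped a peak of the other list by at least 1 bp, beside 60.8% and 64.6% of all exonic peaks. Without CDK6 and RB1, left out after the peaks had been seen, the shares were 44.4% of 9 peaks and 50% of 8. The excess over the background was thus found only with those 2 genes included, and few peaks remained without them. The overlapping peaks formed 25 pairs, of which 14 had the higher fold in replicate 1 and 11 in replicate 2. The median difference within a pair was 0.31 on the log2 scale, and the median distance between summits was 14 nt. Over the 25 pairs, which share genes and libraries, Pearson's r of log2 fold was 0.152 and Spearman's rho was 0.0712, given as a description. Over 25049 pairs of exonic peaks of all genes the values were 0.319 and 0.298.

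**Figure D3:**
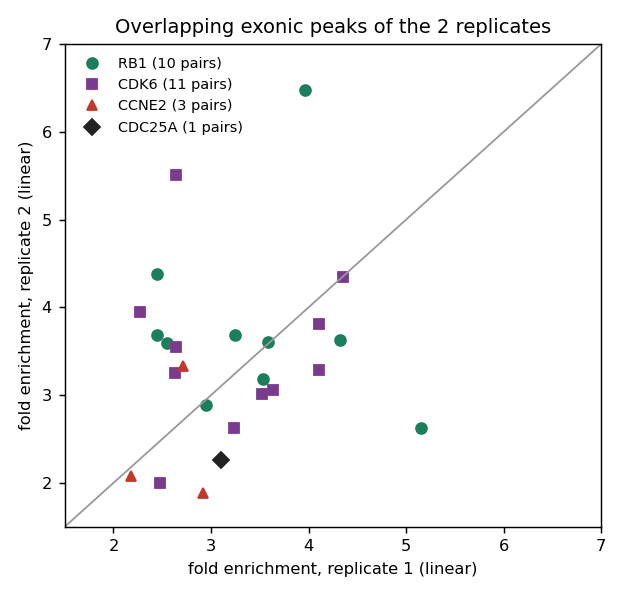
Fold enrichment (linear) in replicate 1 against replicate 2 for the 25 pairs of overlapping exonic peaks of RB1, CDK6, CCNE2 and CDC25A. The line marks equal folds. RB1 exon 19 and CDK6 exon 7 lie far above the line and RB1 exon 20 far below it.

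The median fold of the peaks of the 10 genes was 2.94 in replicate 1 and 3.26 in replicate 2, a mean of 3.10 ± 0.227 (SD, n = 2), next to 2.93 in both lists over all exonic peaks. Summits in the CDS more than 200 nt from the stop codon made up 61.1% and 58.3% of those on canonical mRNAs, with 71.1% and 72.7% over all genes. The 3′ UTR beyond this window held 22.2% and 25%, with 16.7% and 15.4% over all genes, and all but 1 of these 17 summits were in CDK6. Windows that reached 50 nt to either side of a summit contained GGAC in 30.6% and 33.3% of cases, with 32.0% of all exonic windows in each list. TGGAC was found in 8.33% of windows in each replicate, with 12.8% and 12.9% of all exonic windows, and DRACH in 88.9% and 97.2%, with 87.1% and 87.5% of all exonic windows. All motifs were read on the strand of the mRNA, and GGAC includes TGGAC. The windows of RB1 contributed 6 of the 11 with GGAC in replicate 1 and 7 of the 12 in replicate 2, and CDK6 contributed 2 and 3.

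**Figure D4:**
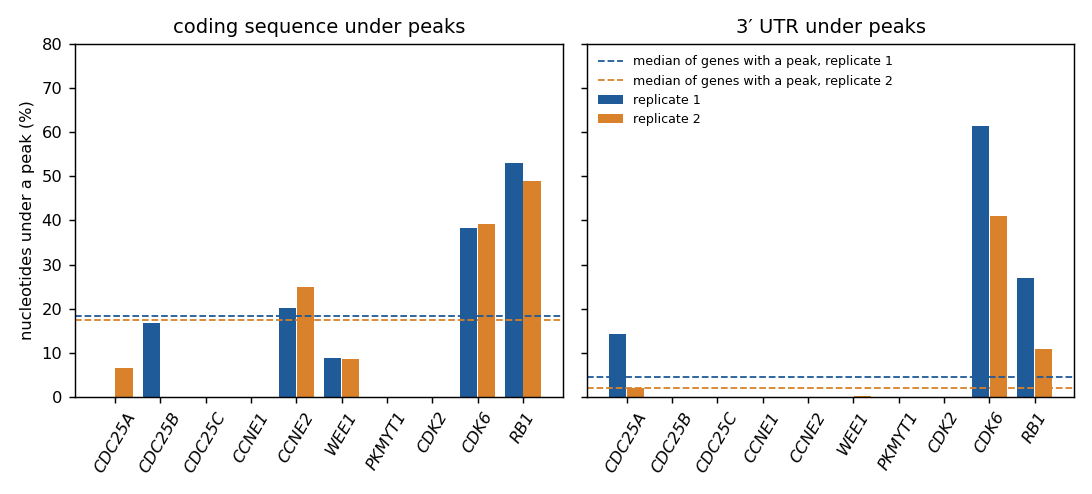
Percent of the CDS (left) and of the 3′ UTR (right) of each gene's canonical mRNA that lies under a peak, as bars from 0, with replicate 1 in blue and replicate 2 in orange. Dashed lines are the medians over all genes with a peak. RB1 is highest in the CDS and CDK6 in the 3′ UTR.

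Base composition and length of the mRNA moved with the presence of peaks over all genes, and the 10 genes were split within the middle classes. Peaks in both replicates were present in 39.4% of genes in the lowest of 5 equal classes of G and C content and in 14.8% of those in the highest class. CCNE2, CDK6 and RB1, all in the lowest class, had peaks in both, and CDC25B and PKMYT1, in the highest, did not. The other genes were all in the middle class, where CDC25A and WEE1 had peaks in both and CDC25C, CCNE1 and CDK2 did not. By mRNA length the share rose from 4.36% in the shortest of 5 classes to 54.8% in the longest. CDC25C, CCNE1, PKMYT1 and CDK2, in the next to shortest class, did not have peaks in both replicates, and CDC25A, WEE1, RB1 and CDK6, in the 2 longest classes, had. In the middle length class CCNE2 had peaks in both and CDC25B did not. The part of composition, length and transcript abundance in these calls was not tested.

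Some sites for microRNA seeds in the CDK6 3′ UTR lay under its broad peaks. MicroRNAs pair with mRNAs through their seed, bases 2 to 8, and 4 that are known to act on cell cycle genes were chosen for this after the peaks had been seen. Their mature sequences, all 4 found in RefSeq (GRCh38.p14), are given with the seed in capitals.
hsa-let-7a-5p: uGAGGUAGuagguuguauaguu
hsa-miR-16-5p: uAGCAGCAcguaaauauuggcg
hsa-miR-29a-3p: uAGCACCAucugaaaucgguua
hsa-miR-34a-5p: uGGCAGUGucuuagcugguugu
Perfect matches to the 7 seed bases, read on the mRNA strand, were CTACCTC for let-7a, TGCTGCT for miR-16, TGGTGCT for miR-29a and CACTGCC for miR-34a. They occur in 9.52%, 21.0%, 13.7% and 15.2% of all 3′ UTRs. CDK6 had no match for let-7a. Its 2 miR-29a matches were both inside a replicate 1 peak and 1 was inside a replicate 2 peak, and of its 2 miR-34a matches 1 was inside a replicate 1 peak and none inside a replicate 2 peak. The miR-16 matches of CDC25A (2), CDC25B (1), CCNE1 (2) and WEE1 (2) were under no peak in either list.

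In CDK6, a miR-16 site 6383 nt past the stop codon was under peaks in both replicates, which together covered 61.3% and 40.9% of the 3′ UTR. A miR-29a site, 8707 nt past the stop codon, was also under peaks in both and lay 125 and 57 nt from the summits of the strongest 3′ UTR peaks. In CDC25A, a let-7a site 136 nt past the stop codon was inside the replicate 1 peak and outside the replicate 2 peak, and the other, 552 nt past it, was in neither. These sites are shown with the seed match in capitals, all on the minus strand, the CDK6 sites at chr7:92608740-92608769 and chr7:92606416-92606445 and the CDC25A site at chr3:48158792-48158821.
CDK6 miR-16 site: gtcagagtgcccTGCTGCTgtctcagaggc
CDK6 miR-29a site: ggcttgtccacaTGGTGCTctccatcttcc
CDC25A let-7a site: catgccttaaacCTACCTCccacactccca
A seed match describes letters in the mRNA and is no evidence that a microRNA bound there.

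Genes with the same number of exonic peaks in each replicate and the nearest highest folds, again by Euclidean distance of log2 values over the 2 replicates, were found for each of the other genes with peaks in both. For RB1 these were MAP4 (0.10), RBM33 (0.23) and FAM193A (0.27), out of 14 candidates. For CDK6 they were DNMBP (0.11), AKAP10 (0.15) and PLEKHG2 (0.37), out of 9. For WEE1 they were SELENOP, TIA1 and ENSG00000285635, out of 193, and for CCNE2 they were MSL2, ATAD2 and GLO1, out of 84.

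Among 58 further genes of cell cycle control, 25 had exonic peaks in both replicates (43.1%), 4 in 1 replicate and 29 in none. A peak with a q of at most 0.05 in either replicate was present in 11 (19.0%), beside 10.3% of all genes. The share with peaks in both may be read beside the 28.0% of all genes and the 5 of 10 above. The highest fold, given as replicate 1 and then replicate 2, was 7.09 and 5.59 in RBL2, a relative of the retinoblastoma protein, which had 10 and 11 peaks. It was 6.16 and 4.38 in CCND2, a D-type cyclin that pairs with CDK6. The repressive E2F factors E2F8 (5.41 and 4.81) and E2F7 (4.92 and 4.29) and the checkpoint kinase ATR (5.11 and 4.65) came next. These were followed by DBF4, which activates the CDC7 kinase (4.13 and 4.93), by SKP2, which marks CDKN1B for degradation (4.85 and 3.36), and by CUL1, the scaffold of the same ligase (3.82 and 4.18). RBL1, the other relative of the retinoblastoma protein, had 12 and 14 peaks with highest folds of 3.94 and 3.81. Of the 8 genes that were selected for qPCR in the study, CCNE2, CDC25A and WEE1 had peaks in both replicates, and CDC6, CDK4, CHEK2, E2F1 and E2F3 had no exonic peak in either list.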

How the data were processed

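RNA bound by IGF2BP3 in OE-19 cells was sequenced in 2 RIP replicates. According to the methods, reads were mapped with Tophat2 and peaks called with MACS2 at default settings on hg38, whereas the submitters' processing notes name fastp, HISAT2 and MACS2. Which library was the caller's control is not given in the sources used here. Each deposited peak carries the authors' fold enrichment (a ratio to local background), −log10 p and −log10 q, and a deposited score that equals the whole part of 10 times the −log10 p in 100% of peaks. The smallest −log10 p was 2.0003 and 2.00226, with a median −log10 q of 0 in each list. This is looser than the default limit of MACS2, although the methods name default settings. The limit that was used is not given, so a listed peak need not have passed the default. Read depth is unknown.

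Summits were assigned to exons of GENCODE release 44 regardless of strand and placed on canonical mRNAs. No peak ran past a chromosome end (0 peaks). The 13 and 12 peaks on scaffolds stayed in the totals of the lists, and none of them belonged to the 10 genes. No test was run, since there is 1 group of 2 replicates. Values are given per replicate or as mean ± SD. The genes and lists were chosen with earlier results of these data known. By rule, all 10 genes were named, from the wider list the 8 with the highest mean of the highest folds among those with peaks in both replicates and the genes the study selected for qPCR, and the 5 genes most like CDC25A or 3 most like each other gene. RBL1 was named after its values were seen. Alternatives were other limits on q, p and fold, other assignments, windows and overlaps, and leaving out each replicate. Not every microRNA seed match is reported here. Assignment was tested on simulated data. The software was pandas 2.3.3 and numpy 2.4.6 under Python 3.11.15, with matplotlib 3.10.9 for the plots.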

Additional observations from a re-analysis of the deposited data

Results flagged for a closer look

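Outside the exonic peaks, 4 peaks of these genes had their summit in an intron, which no comparison above used. They were in CCNE2 (replicate 2), CDK6 (replicate 1) and RB1 (1 in each replicate), with folds from 2.34 in RB1 replicate 2 to 3.58 in CDK6. Their q values were 0.224 in CDK6 and 1 in the others. All 4 summits lay 6 to 14 nt from an exon and all 4 peaks overlapped that exon, and the RB1 peak of replicate 1 overlapped a replicate 2 peak whose summit is in exon 8. There were no input values to compare them with here.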

How the results depend on the processing

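Of 65 alternative values, 36 stayed near the main value, that is within 1.5 times for counts and within 1 SD between replicates for other values, and 29 moved. With 2 replicates, each lies within 1 SD of their mean by construction. Leaving out a replicate therefore could not move a value other than a count, and the 36 include such cases. A q of at most 0.05 left 2 genes with peaks in both replicates instead of 5, 4 instead of 7 in either, 3 peaks per replicate instead of 36.5, a median fold of 4.98 instead of 3.10, 83.3% instead of 59.7% of summits in the CDS, 16.7% instead of 31.9% of windows with GGAC, and 0% instead of 72.6% of peaks shared, or 66.7% when set against any deposited peak. A p of at most 1e-05 gave 2 and 4 genes, 5 peaks, a fold of 4.38, 77.5% in the CDS and 20.8% shared. A fold of at least 3 gave 2 genes in both, 20.5 peaks, a fold of 3.60 and 52.3% shared. Under these limits fewer peaks remain by construction. Sharing was 47.9% for an overlap of 50% of both peaks and 64.4% for summits within 100 bp. The CDS share was 65.3% with a stop codon window of 100 nt and 56.8% by peak midpoints. GGAC was in 13.9% of windows of 25 nt on either side, 52.8% of those of 100 nt and 23.6% of unspliced windows. Without CDK6 and RB1, chosen after seeing the data, 8.5 peaks per replicate remained, with a median fold of 2.70, 74.6% in the CDS and 47.2% shared.

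Leaving out a replicate gave ranges of 6 to 6 genes in either, 36 to 37 peaks, folds of 2.94 to 3.26, 58.3% to 61.1% in the CDS and 30.6% to 33.3% with GGAC. Other gene assignments left 5 genes with peaks in both replicates and gave 6 to 7 with a peak in either. No paired analysis was possible because RIP and input could not be compared without input values and no test was run. With 2 replicates, unknown depth and most q values at 1, a single weak peak such as that of CDC25A has no further check here.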
